A study of Mus musculus with 8 samples.

Results

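The 10 secreted antimicrobial and chitinase-like genes described here are Lcn2, Ltf, Lyz1, Lyz2, Chia1, Chil1, Chil3, S100a8, S100a9 and Slpi. They were taken by gene symbol from 24306 named genes on a mouse expression array, each by its brightest spot over 8 arrays, and all 10 were found. The genes were listed by function, but with earlier results of these data known. The question was at what level each gene stood by sorted population, Fgfr2b genotype and day of tamoxifen. It was asked for products known from lung epithelium and for products known from macrophages and neutrophils.

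The cells were sorted from the lungs of mice aged 9 to 12 weeks, of both sexes, that carried an inducible Cre at the Sftpc locus and a tdTomato reporter. Cells were taken by the epithelial surface protein Epcam and by their tdTomato signal: Tom-low cells are called IAAPs and Tom-high cells AT2s, the mature type 2 cells of the alveolus. E-IAAPs and E-AT2s came, at days 4, 7 and 14 of tamoxifen, from mice that were Fgfr2b flox/flox and carried both Sftpc CreERT2/+ and tdTomato flox/flox. C-IAAPs and C-AT2s came, at day 7, from mice with Sftpc CreERT2/+, tdTomato flox/flox and wild-type Fgfr2b. All mice drank tamoxifen at 1 mg/ml, so the controls carried the Cre, the reporter and the drug as well. Each of the 8 groups of population, genotype and day had 1 array, and the number of mice behind an array is not given in the sources used here. Recombination was driven from a surfactant gene and could reach only cells that used it, and the antibodies named for the sort did not include one against the leukocyte protein CD45. The 3 days therefore stood in for replicates of the E groups, and every p-value here rests on them. Between E-IAAPs and E-AT2s it measures how their difference varied over days, and for slopes the scatter about the fitted lines. In comparisons with control arrays it measures the spread over days within the E groups.

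Secreted defence proteins of the lung act in the fluid that lines the airways and alveoli. Some withhold metals from microbes: lipocalin 2 (Lcn2) binds the siderophores with which bacteria collect iron, lactoferrin (Ltf) binds iron itself, and calprotectin (S100a8 with S100a9) binds zinc and manganese. The lysozymes Lyz1 and Lyz2 cut the bacterial cell wall, Chia1 cuts chitin, and Chil1 and Chil3 keep the fold of a chitinase without its activity. Slpi, the secretory leukocyte protease inhibitor, blocks neutrophil elastase. In the mouse lung, type 2 cells are known to make Lcn2, Lyz2, Chia1 and Chil1, alveolar macrophages to make Chil3 and Lyz2, airway and gland cells to make Ltf and Slpi, and neutrophils and monocytes to make S100a8 and S100a9, with lactoferrin also stored in neutrophil granules.

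Values are log2 spot signals. A gene was called above background on an array where its signal exceeded the 95 percentile of 1398 sensory receptor genes there, a level that was 8.67 for C-IAAPs and lay between 6.45 and 7.28 for the other 7 arrays. The C-IAAP array stood apart before any comparison of the 10 genes: 26.7% of genes there were above background, against 40.8% to 46.6% elsewhere, and its correlation with the other arrays over genes was 0.845 to 0.876 against 0.915 to 0.971 among them. Every comparison that involves C-IAAPs rests on that array and cannot be made without it. Fgfr2 read between 10.87 and 11.83 on the E-IAAP arrays and 11.72 on the C-IAAP array, and between 11.68 and 12.10 on the E-AT2 arrays and 12.45 on the C-AT2 array. The spot is not tied here to the deleted exon, so it does not check the deletion. All 11 AT2 markers, Sftpc among them, were above background on all 8 arrays, and the epithelial marker Epcam read 10.88 to 11.21 in E-IAAPs, 8.72 in C-IAAPs, 11.07 to 11.38 in E-AT2s and 11.05 in C-AT2s. In such sorted pools, more cells of a type and more RNA per cell cannot be told apart.

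Of the 10 genes, 8 were above background on every array, as were 5711 genes in all; Ltf was above it on 2 arrays and S100a8 on 3. Chil3 was higher in IAAPs than in AT2s in both genotypes, by 29.6-fold in the E populations and 18.4-fold in the controls. Lcn2 was 2.98-fold higher in E-IAAPs than in C-IAAPs. Lyz1, Lyz2, Chia1, Chil1, Ltf, S100a8, S100a9 and Slpi passed no comparison at an adjusted p under 0.05 (limma, Benjamini-Hochberg over all 24306 genes).

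**Figure D1:**
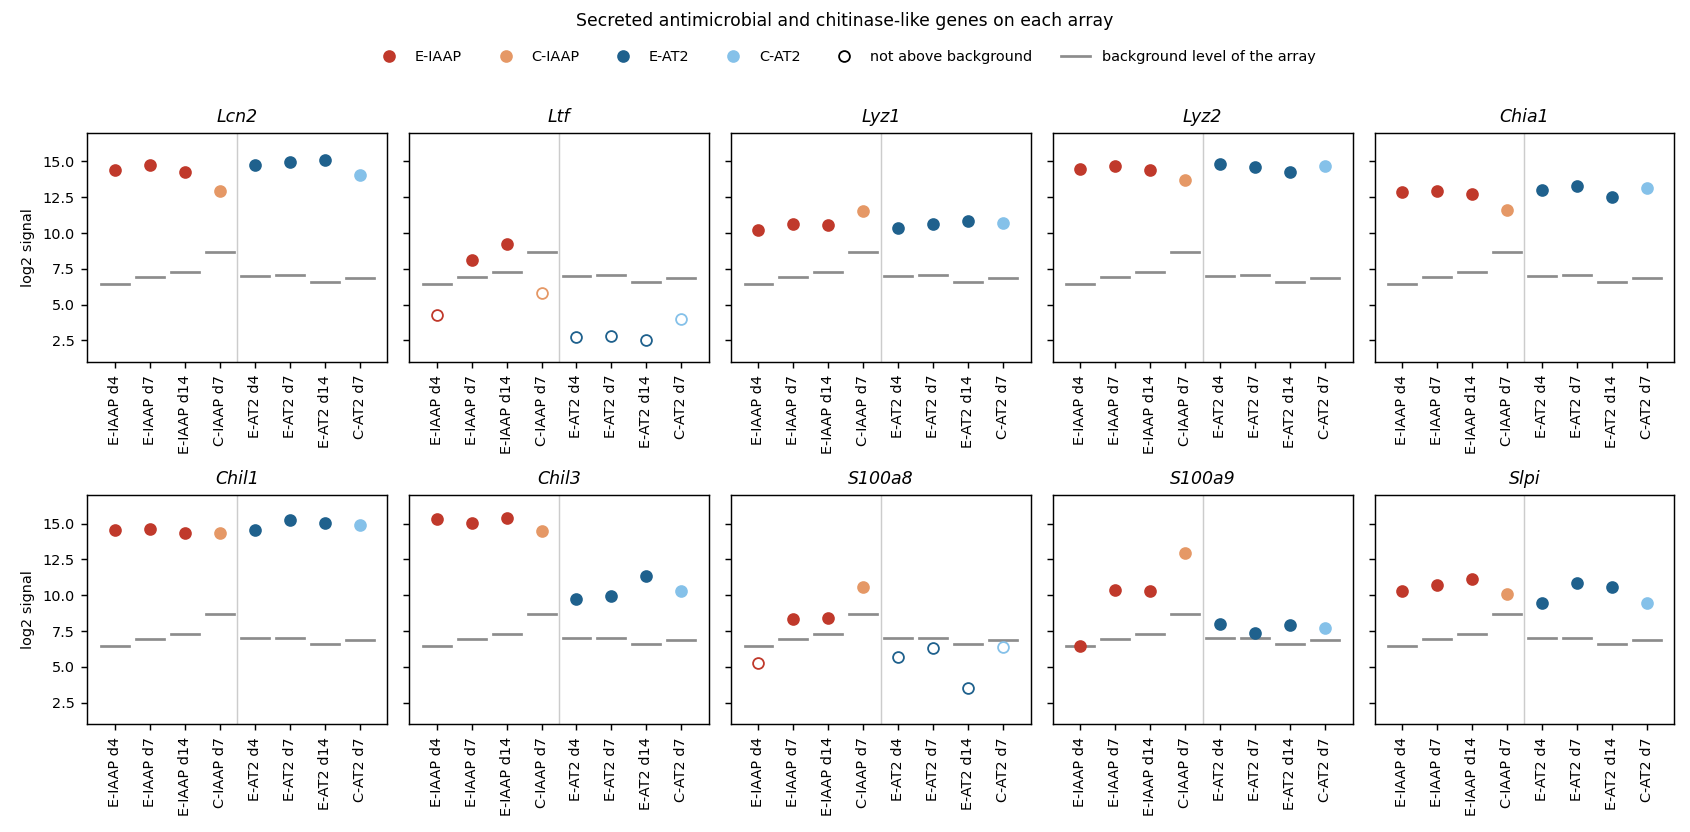
Log2 signal of the 10 genes (y axis) on each of the 8 arrays (x axis; d4, d7 and d14 are days of tamoxifen), 1 point per array. Grey bars are the background level of the array and open points lie at or below it. Chil3 sits above 14 on the 4 IAAP arrays and below 12 on the 4 AT2 arrays, while Ltf and S100a8 are open on most arrays.

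The promoters of the genes on which the results turn are shown with 3 short motifs, since these genes are textbook targets of myeloid and inflammatory factors. Each window runs from 250 bases before to 50 bases after the gene's start, from RefSeq on GRCm38.p6, and all 10 genes had 1 window. Capitals mark matches, on either strand, to TTGCNNAA (a site form of C/EBP factors), GAGGAA (PU.1, the myeloid factor encoded by Spi1) or GGGA followed by any 4 bases and CC (NF-kB). No match in the printed windows overlapped another. Of 27025 promoter windows of this length, 10.8% held the C/EBP letters, 28.3% the PU.1 letters and 20.5% the NF-kB letters. Chil3 and Lcn2, the genes with a called difference, come first.
Chil3, chr3:106167515-106167814, minus strand: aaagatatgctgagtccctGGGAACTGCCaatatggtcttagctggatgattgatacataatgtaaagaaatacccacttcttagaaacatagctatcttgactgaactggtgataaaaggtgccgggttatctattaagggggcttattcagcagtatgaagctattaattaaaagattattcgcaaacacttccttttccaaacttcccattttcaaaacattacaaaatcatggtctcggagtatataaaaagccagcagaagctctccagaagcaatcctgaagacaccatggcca
Lcn2, chr2:32387690-32387989, minus strand: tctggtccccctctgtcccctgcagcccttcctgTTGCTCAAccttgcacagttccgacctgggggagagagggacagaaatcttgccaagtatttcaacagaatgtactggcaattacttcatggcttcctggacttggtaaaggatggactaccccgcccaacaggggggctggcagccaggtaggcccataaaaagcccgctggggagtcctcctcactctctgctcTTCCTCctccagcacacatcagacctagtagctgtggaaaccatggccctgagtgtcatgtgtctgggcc
The calprotectin pair, whose signals moved together over the arrays, follows.
S100a8, chr3:90668821-90669120, plus strand: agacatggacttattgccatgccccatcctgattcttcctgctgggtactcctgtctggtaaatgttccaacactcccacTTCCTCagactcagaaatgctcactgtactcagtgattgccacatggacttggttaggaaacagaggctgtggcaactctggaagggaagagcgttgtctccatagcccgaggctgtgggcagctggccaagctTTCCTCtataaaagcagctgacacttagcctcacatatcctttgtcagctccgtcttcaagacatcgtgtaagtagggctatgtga
S100a9, chr3:90695672-90695971, minus strand: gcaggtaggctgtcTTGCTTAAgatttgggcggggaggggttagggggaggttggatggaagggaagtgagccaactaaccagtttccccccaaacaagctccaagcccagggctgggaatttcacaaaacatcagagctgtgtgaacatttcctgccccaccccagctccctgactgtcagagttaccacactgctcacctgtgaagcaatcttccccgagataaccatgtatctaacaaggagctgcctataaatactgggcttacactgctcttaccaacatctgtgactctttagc
The Chil3 window held the NF-kB letters, Lcn2 the C/EBP and PU.1 letters, S100a8 the PU.1 letters at 2 places and S100a9 the C/EBP letters. Among the windows not printed, Ltf held the C/EBP and PU.1 letters, Chia1 the PU.1 letters, Chil1 the NF-kB letters and Slpi the C/EBP letters. Chil1, with no called difference, thus held the same letters as Chil3.

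Among the iron-binding proteins, Lcn2 was bright on every array. It read 14.40, 14.74 and 14.29 in E-IAAPs at days 4, 7 and 14, 12.90 in C-IAAPs, 14.78, 14.98 and 15.12 in E-AT2s and 14.08 in C-AT2s. The C-IAAP array was the lowest of the 8 and the C-AT2 array the next, so that the E arrays and the control arrays did not overlap in either population. E-IAAPs exceeded C-IAAPs by 1.58 log2 (SE 0.36, 95% interval 0.73 to 2.42, adjusted p = 0.0283). In that comparison 17.1% of all genes passed, 2273 higher and 1884 lower (1785 and 2958 once housekeeping genes set each array's centre). Of the 10 genes 1 passed. The Lcn2 call was lost when the arrays were centred on genes used by every cell (1.28 log2, adjusted p = 0.0511), with day as a term (1.71 log2, adjusted p = 0.0891), without E-IAAP day 4 (1.61 log2, adjusted p = 0.0621) and without E-IAAP day 7 (1.44 log2, adjusted p = 0.0624).

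The other Lcn2 differences did not pass. E-AT2s stood above C-AT2s by 0.88 log2 (SE 0.36, adjusted p = 0.724), C-IAAPs below C-AT2s with a difference of -1.17 (SE 0.44, adjusted p = 0.119), and E-IAAPs below E-AT2s with -0.48 (SE 0.27, adjusted p = 0.547). The difference between the 2 genotype effects was 0.69 log2 (95% interval -0.51 to 1.89), so the data do not set the effect in IAAPs apart from that in AT2s. A second Lcn2 spot gave the same order, with 11.05, 11.36 and 10.88 in E-IAAPs, 9.21 in C-IAAPs, 11.50, 11.69 and 12.01 in E-AT2s and 10.68 in C-AT2s. On that spot E-IAAPs exceeded C-IAAPs by 1.89 log2 (SE 0.38, adjusted p = 0.0192). Ordered by mean, Lcn2 was highest in E-AT2s (14.96 ± 0.17), then in E-IAAPs (14.48 ± 0.23, SD over 3 days in each), C-AT2s and C-IAAPs, and each step was larger than the larger of these SDs.

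Lactoferrin was measured above background in E-IAAPs of the later days. Ltf read 4.28, 8.10 and 9.23 in E-IAAPs at days 4, 7 and 14, 5.78 in C-IAAPs, 2.76, 2.83 and 2.57 in E-AT2s and 4.03 in C-AT2s. Only the E-IAAP arrays of days 7 and 14 were above background, and all other arrays were below it. The E-IAAP mean exceeded the E-AT2 mean by 4.49 log2 (SE 1.02, 95% interval 1.81 to 7.16, adjusted p = 0.231), a difference that did not pass and has no measured size, since the gene was below background on every E-AT2 array. Against the background level of the E-AT2 arrays, the E-IAAP mean was at least 1.24-fold higher. The change from day 4 to day 14 in E-IAAPs did not pass (limma, adjusted p = 0.646), nor did its difference from that in E-AT2s (adjusted p = 0.874), and the day 4 end was below background.

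Ltf shared its climb over the E-IAAP days with markers of airway secretory cells, given here without a test. Scgb3a2, a secretoglobin of airway cells, read 11.23, 11.90 and 14.94 in E-IAAPs at days 4, 7 and 14, against 9.50 to 9.51 in E-AT2s. Cyp2f2, an enzyme of club cells, read 11.66, 12.44 and 14.80 in E-IAAPs, against 10.22 to 11.25 in E-AT2s. The likeness did not extend to C-IAAPs, where Ltf was below background. There Scgb3a2 read 12.54 and Cyp2f2 13.42, both above E-IAAP days 4 and 7. Scgb1a1, the main club cell product, read 15.78, 15.96 and 16 in E-IAAPs and 14.44, 15.05 and 15.25 in E-AT2s, near the top of the scale on every array. Cbr2, another bright marker of the list, read 14.44, 14.58 and 14.85 in E-IAAPs and 14.85, 14.87 and 14.77 in E-AT2s. Unlike the markers above, its E-IAAP mean of 14.62 lay below its E-AT2 mean of 14.83. Of the 8 airway secretory markers, 7, 8 and 8 were above background on the E-IAAP arrays of days 4, 7 and 14 and 6 on each other array, and the log2 of their summed signal was 16.41, 16.70 and 17.49 in E-IAAPs, 16.69 in C-IAAPs, 15.74, 16.05 and 16.11 in E-AT2s and 16.53 in C-AT2s. Of the 8, 0 passed between E-IAAPs and E-AT2s by limma. At an unadjusted p under 0.05 there were 7, all higher, beside 1598 of all 24306 genes higher and 1241 lower. The median difference of the 8 was 2.10 log2 against -0.05 over all genes. Reg3g, a lectin that binds Gram-positive bacteria, was chosen after its values were seen: it read 5.97, 9.87 and 10.68 in E-IAAPs, 3.13 in C-IAAPs, 3.80 to 5.37 in E-AT2s and 3.41 in C-AT2s, and like Ltf was above background only in E-IAAPs of days 7 and 14. The part of airway cells in the Ltf signal was not tested.

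Lactoferrin is also a neutrophil granule protein, and markers of neutrophils were read beside it. Of 17 neutrophil markers, 4, 6 and 5 were above background on the E-IAAP arrays of days 4, 7 and 14, 5 on the C-IAAP array, 4, 4 and 4 on the E-AT2 arrays and 3 on the C-AT2 array. Ly6g, the surface marker of mouse neutrophils, and the granule genes Ngp, Elane, Mpo and Prtn3 were below background on all 8 arrays. Camp, stored in the same granules as lactoferrin, lay between 6.52 and 7.65 on all arrays. Other markers of the list, chosen after their values were seen, were higher on the later E-IAAP days, as Ltf was. Mmp8, a neutrophil collagenase, read 5.68, 7.33 and 7.31 in E-IAAPs at days 4, 7 and 14 and was above background on the same 2 arrays as Ltf. Retnlg read 3.96, 6.51 and 7.77 and Cxcr2 3.59, 7.34 and 7.02 on the E-IAAP arrays, each above background on 1 of the 3. Unlike Ltf, both were highest in C-IAAPs, at 10.53 and 9.20. Retnlg also read 2.73, 7.69 and 6.31 in E-AT2s, where Ltf did not rise. The part of neutrophil RNA in the Ltf signal was not tested.

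The 2 lysozyme genes lie 5.523 kb apart on chromosome 10, and their promoter windows are shown as those of a neighbouring pair of copies.
Lyz1, chr10:117292819-117293118, minus strand: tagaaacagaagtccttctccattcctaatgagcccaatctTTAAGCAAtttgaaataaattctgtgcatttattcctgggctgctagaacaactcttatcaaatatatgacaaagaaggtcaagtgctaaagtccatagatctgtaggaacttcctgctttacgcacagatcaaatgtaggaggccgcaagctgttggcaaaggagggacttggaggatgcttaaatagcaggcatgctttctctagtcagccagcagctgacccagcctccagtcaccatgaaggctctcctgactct
Lyz2, chr10:117282223-117282522, minus strand: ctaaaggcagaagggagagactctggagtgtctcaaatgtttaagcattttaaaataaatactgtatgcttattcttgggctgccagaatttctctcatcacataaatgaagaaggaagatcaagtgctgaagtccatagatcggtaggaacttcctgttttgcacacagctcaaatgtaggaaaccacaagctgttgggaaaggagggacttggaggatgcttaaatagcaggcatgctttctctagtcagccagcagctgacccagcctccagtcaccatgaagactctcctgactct
The windows were identical at 82.5% of 302 aligned columns, against 46% for S100a8 and S100a9 and 45.7% for Chia1 and Chil3. The Lyz1 window held the C/EBP letters and the Lyz2 window held none of the 3 motifs. These windows do not bear on the transcripts that the spots bind. Whether the spots separate the 2 transcripts is uncertain.

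Lyz1, the lysozyme known from Paneth cells of the gut, read 10.22, 10.63 and 10.58 in E-IAAPs, 11.51 in C-IAAPs, 10.32, 10.60 and 10.87 in E-AT2s and 10.70 in C-AT2s. The C-IAAP array was the highest and the other 7 lay within a narrow band. E-IAAPs stood below C-IAAPs with a difference of -1.03 (SE 0.38, adjusted p = 0.108), and C-IAAPs above C-AT2s by 0.81 (SE 0.46, adjusted p = 0.280). Between E-IAAPs and E-AT2s the Lyz1 difference was -0.12 (95% interval -0.78 to 0.55).

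Lyz2, the lysozyme of macrophages and type 2 cells, went the other way on its brighter spot. It read 14.47, 14.66 and 14.37 in E-IAAPs, 13.71 in C-IAAPs, 14.84, 14.58 and 14.29 in E-AT2s and 14.65 in C-AT2s. The C-IAAP array was the lowest of the 8. A second Lyz2 spot read 13.25, 13.41 and 13.42 in E-IAAPs, 13.91 in C-IAAPs, 13.43, 13.53 and 13.44 in E-AT2s and 12.97 in C-AT2s. On this spot the C-IAAP array was the highest, so the 2 spots disagreed on the sign of the differences from C-IAAPs. E-IAAPs against C-IAAPs gave 0.79 log2 on the brighter spot (SE 0.36, adjusted p = 0.177) and -0.55 on the other (SE 0.32, adjusted p = 0.268). No direction is therefore given for Lyz2 in C-IAAPs. Both spots gave small differences between E-IAAPs and E-AT2s, -0.07 (95% interval -0.76 to 0.62) on the brighter spot and -0.11 on the other. Of the 8 other genes of the lysozyme family, none was above background on any array.

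**Figure D2:**
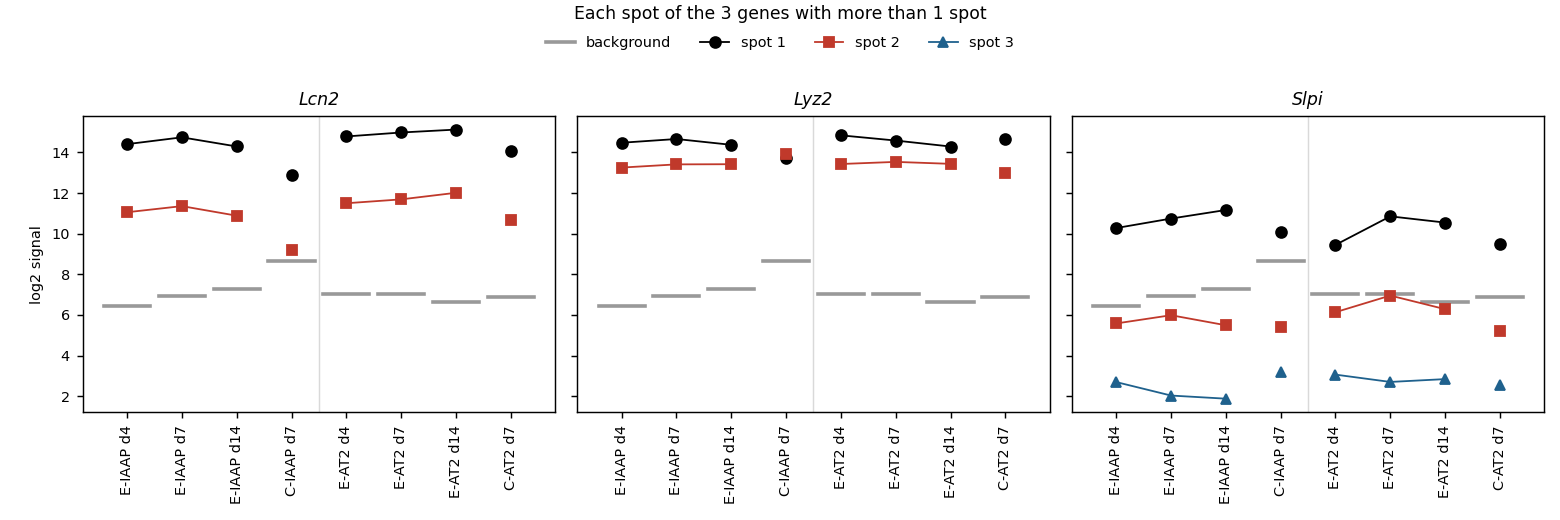
Log2 signal (y axis) of every spot of Lcn2, Lyz2 and Slpi on each array (x axis), with the array's background level in grey, spots numbered by brightness. The 2 Lcn2 spots run in parallel, the 2 Lyz2 spots cross at the C-IAAP array (13.71 and 13.91), and the dimmer Slpi spots lie below background on all 8 arrays.

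In the chitinase family, the active chitinase Chia1 read 12.83, 12.92 and 12.71 in E-IAAPs, 11.64 in C-IAAPs, 12.99, 13.31 and 12.50 in E-AT2s and 13.17 in C-AT2s. The C-IAAP array was again the lowest and the other 7 overlapped. C-IAAPs stood below C-AT2s with a difference of -1.53 (SE 0.50, adjusted p = 0.0852) and E-IAAPs above C-IAAPs by 1.18 (SE 0.41, adjusted p = 0.0916), neither of which passed. Between E-IAAPs and E-AT2s the Chia1 difference was -0.12 (95% interval -0.83 to 0.60).

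Chil1, the chitinase-like protein also known as BRP-39, varied least of the 10 genes, over 0.94 log2 on the 8 arrays. It read 14.53, 14.62 and 14.36 in E-IAAPs, 14.33 in C-IAAPs, 14.59, 15.27 and 15.02 in E-AT2s and 14.89 in C-AT2s. The IAAP arrays reached up to 14.62 and the AT2 arrays down to 14.59, an overlap of 1 array on each side. No Chil1 difference passed: E-IAAPs against E-AT2s gave -0.46 (95% interval -1.19 to 0.27) and C-IAAPs against C-AT2s -0.56 (95% interval -1.68 to 0.56). The genotype differences were 0.17 in IAAPs (95% interval -0.74 to 1.09) and 0.07 in AT2s (95% interval -0.84 to 0.99). Of its receptors, Il13ra2 and Tmem219 were not called in any comparison (limma).

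Chil3, also known as Ym1 and a hallmark of alveolar macrophages, separated the populations. It read 15.30, 15.03 and 15.37 in E-IAAPs, 14.51 in C-IAAPs, 9.75, 9.96 and 11.33 in E-AT2s and 10.31 in C-AT2s. All 4 IAAP arrays lay above all 4 AT2 arrays. The C-IAAP array lay below the E-IAAP arrays, and the C-AT2 array lay within the E-AT2 range. E-IAAPs exceeded E-AT2s by 4.89 log2 (SE 0.38, 95% interval 3.89 to 5.88, adjusted p = 0.0184), higher at each of the 3 days. In that comparison 1.31% of genes passed, 317 higher in E-IAAPs and 1 lower, and Chil3 was the 1 of the 10 genes that did. C-IAAPs exceeded C-AT2s by 4.20 log2 (SE 0.77, 95% interval 2.38 to 6.02, adjusted p = 0.0185), where 13.9% of genes passed, 1485 higher and 1889 lower (2138 and 1457 after that centring), and again Chil3 alone of the 10.

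The Chil3 difference was not shown to differ by genotype. The interaction of population and genotype was 0.69 log2 (SE 0.89, 95% interval -1.42 to 2.79). In that fit 4.37% of genes (687 upward and 375 downward, or 436 and 609 after that centring) and 0 of the 10 passed (limma). At an unadjusted p under 0.05 there were 2936 of 24306 genes upward and 2747 downward, and 1 of the 10, Chia1, was among them. For Chil3, E-IAAPs against C-IAAPs gave 0.72 (95% interval -0.77 to 2.21) and E-AT2s against C-AT2s 0.04 (95% interval -1.45 to 1.52). The call in the E populations was lost when any 1 day was left out, with differences of 4.55 to 5.31 log2 and adjusted p of 0.0907 to 0.141. With 1 day fewer, 0 of 24306 genes passed in that comparison. Within E-AT2s, Chil3 read highest at day 14, with a fitted change of 1.65 log2 from day 4 to day 14 (SE 0.49, adjusted p = 1.00).

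The genes closest to Chil3 over the 8 arrays were Itgb2, Ctss and Ear10, with Pearson r of 1.00 each among 10550 genes above background on at least 4 arrays. The arrays share their population labels, so these values describe and do not test. Itgb2, the leukocyte integrin chain, read 14.22, 14.15 and 14.21 in E-IAAPs, 13.36 in C-IAAPs, 8.50, 8.63 and 10.04 in E-AT2s and 8.92 in C-AT2s. Ctss, a lysosomal protease of macrophages, and Ear10, an eosinophil-associated ribonuclease, had the same step between populations. The day 14 excess within E-AT2s was present in these genes too and in Marco, the scavenger receptor of alveolar macrophages, which read 7.30, 7.15 and 9.95 in E-AT2s at days 4, 7 and 14.

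Most alveolar macrophage markers were, like Chil3, higher in IAAPs than in AT2s. Of its 18 measured markers, 17 were above background on each E-IAAP array, 10 on the C-IAAP array, 5, 5 and 10 on the E-AT2 arrays of days 4, 7 and 14, and 6 on the C-AT2 array. The log2 of their summed signal was 15.99, 15.83 and 16.15 in E-IAAPs, 14.53 in C-IAAPs, 12.77, 12.63 and 13.23 in E-AT2s and 12.72 in C-AT2s. Between E-IAAPs and E-AT2s, 15 of the 18 passed, all higher, with a median of 5.03 log2. Between C-IAAPs and C-AT2s, 10 passed higher and 1, Pparg, lower, with a median of 3.32. Between E-IAAPs and C-IAAPs 7 passed, all higher, with a median of 2.15, where Chil3 itself did not pass. Many of the 18 were below background on the AT2 and C-IAAP arrays, so these medians are not measured sizes. Of 8 general leukocyte markers, 7 passed between E-IAAPs and E-AT2s and 6 between C-IAAPs and C-AT2s, all higher, among them Ptprc, the gene of CD45. Ptprc read 12.79, 12.38 and 12.75 in E-IAAPs, 12.93 in C-IAAPs, 7.67, 8.41 and 8.09 in E-AT2s and 8.15 in C-AT2s. Spi1, which encodes PU.1, read 9.75, 9.94 and 9.90 in E-IAAPs, 8.06 in C-IAAPs and 4.91 to 5.92 in AT2s, below background on the C-IAAP and AT2 arrays. Pparg read 5.51 on the C-IAAP array, below background, and its C-AT2 value of 7.49 lay under the C-IAAP background level of 8.67. Its lower call therefore has no measured size. The part of macrophage RNA in the Chil3 signal was not tested.

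Chil3 has a near-identical copy, Chil4 (Ym2), which followed it. Chil4 read 10.67, 10.47 and 10.31 in E-IAAPs, 10.31 in C-IAAPs, 4.56, 5.16 and 6.0 in E-AT2s and 4.97 in C-AT2s, with all AT2 arrays below background. The background level of the C-IAAP array was 8.67, which the bound for the controls does not allow for. Between E-IAAPs and E-AT2s it was at least 12.0-fold higher (adjusted p = 0.0191), and between C-IAAPs and C-AT2s at least 10.9-fold higher (adjusted p = 0.00777). The 2 copies are reported as uncertain, since either spot may hold signal of the other transcript. Chil4 was the 1 of 7 other chitinase family genes to pass. Chit1, the chitinase known from human macrophages, was below background on all arrays, as were Ctbs, Ovgp1 and Chil6, while Chil5 lay above it on 6 arrays and Chid1 on 5.

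**Figure D3:**
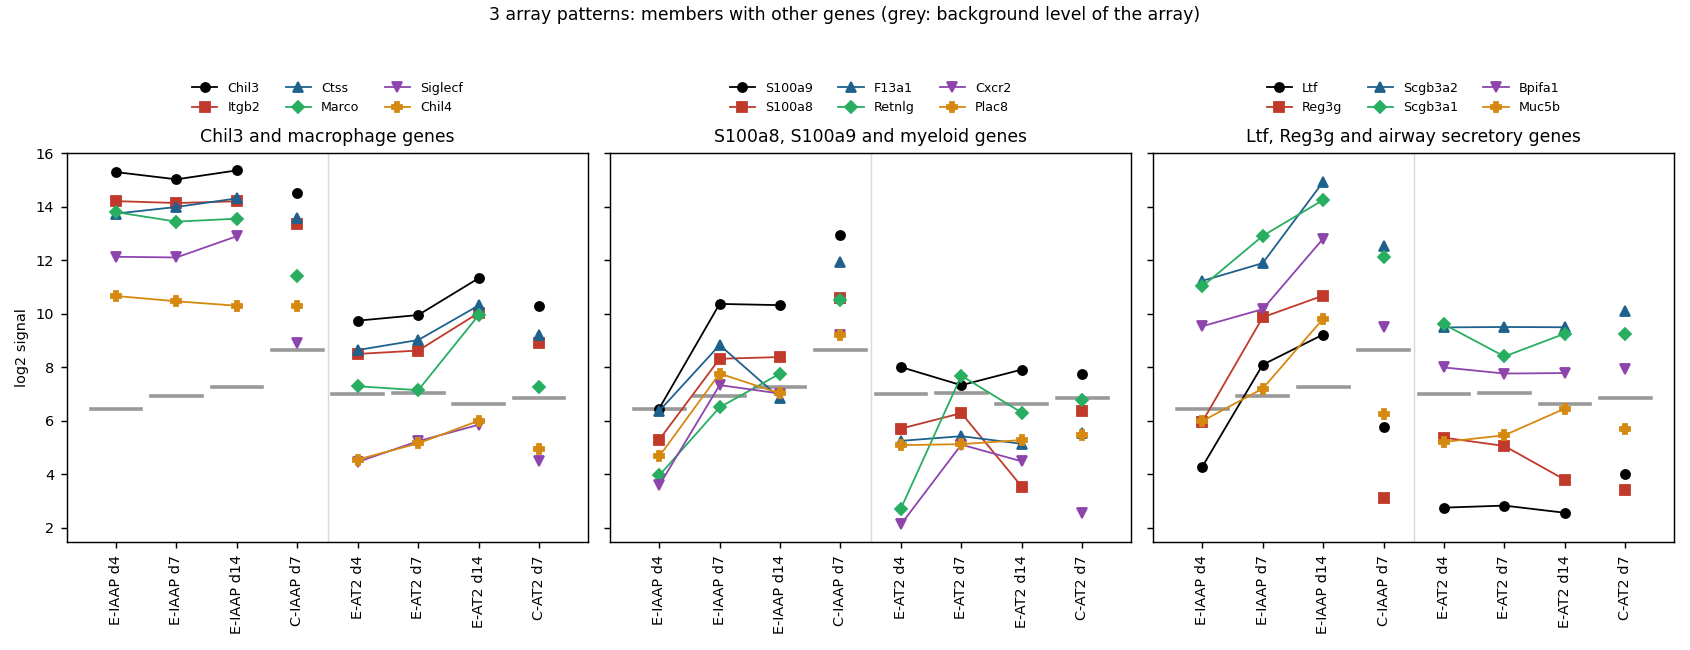
Log2 signal (y axis) on each array (x axis) of Chil3, of S100a8 and S100a9, and of Ltf, each with 4 or 5 other genes of like course, and the background level of each array in grey. The first set steps down between IAAP and AT2 arrays, the second peaks at the C-IAAP array and is near or below background in E-IAAPs at day 4, and the third climbs over the E-IAAP days. In the third set, Scgb3a2, Scgb3a1 and Bpifa1 are above background at the C-IAAP array and Ltf is not.

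The calprotectin subunits had their highest value in control IAAPs. S100a8 and S100a9 lie 22.6 kb apart on chromosome 3. S100a9 read 6.46, 10.37 and 10.33 in E-IAAPs at days 4, 7 and 14, 12.96 in C-IAAPs, 8.01, 7.33 and 7.92 in E-AT2s and 7.74 in C-AT2s. E-IAAP day 4 was the lowest of the 8 arrays and at the edge of background, while the other E-IAAP days lay above all AT2 arrays. S100a8 read 5.30, 8.32 and 8.39 in E-IAAPs, 10.59 in C-IAAPs, 5.71, 6.29 and 3.54 in E-AT2s and 6.39 in C-AT2s, above background on 3 arrays, C-IAAP and E-IAAP days 7 and 14. The 2 genes had a Pearson r of 0.88 over the 8 arrays, a description of arrays that share groups.

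The S100a9 difference between C-IAAPs and C-AT2s was 5.22 log2 (SE 1.77, 95% interval 1.02 to 9.42, adjusted p = 0.0960), a 37.3-fold difference of 2 arrays that did not pass. E-IAAPs stood below C-IAAPs with a difference of -3.91 (SE 1.45, adjusted p = 0.109). E-IAAP day 4 decided the call: without it, S100a9 passed in both comparisons, at 5.22 log2 (SE 0.51, adjusted p = 0.0152) and -2.61 (SE 0.44, adjusted p = 0.0250). For S100a8 the same differences were 4.20 (SE 1.78, adjusted p = 0.159) and -3.25 (SE 1.45, adjusted p = 0.168). C-IAAPs held at least 13.2-fold more S100a8 signal than the background level of C-AT2s. On the C-IAAP array itself, whose background was higher, S100a8 read 1.92 log2 above the background level. Between E-IAAPs and E-AT2s, S100a9 differed by 1.30 (95% interval -1.21 to 3.81) and S100a8 by 2.15 (95% interval -0.50 to 4.80, with every E-AT2 array below background), with opposite signs for S100a9 at day 4 and later.

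Several myeloid genes had this course, chosen after their values were seen. F13a1, a coagulation factor chain of monocytes and macrophages, read 6.37, 8.84 and 6.85 in E-IAAPs, 11.94 in C-IAAPs (background level 8.67), 5.15 to 5.43 in E-AT2s and 5.56 in C-AT2s. It passed between C-IAAPs and C-AT2s, at least 33.6-fold higher (adjusted p = 0.0143), and between E-IAAPs and C-IAAPs (-4.58 log2, adjusted p = 0.0165). Retnlg, a resistin-like gene of neutrophils, read 10.53 in C-IAAPs, and Cxcr2, their chemokine receptor, 9.20, both above every E-IAAP and AT2 array. Plac8, known from monocytes and neutrophils, read 4.67, 7.77 and 7.03 in E-IAAPs, 9.22 in C-IAAPs, 5.09 to 5.29 in E-AT2s and 5.47 in C-AT2s. By the fixed rule, the 3 genes closest to S100a9 over the arrays were Ostm1, Scgb2b2 and 1700006J14Rik, with r of 0.99, 0.99 and 0.98.

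Of 8 monocyte markers, 3, 5 and 3 were above background on the E-IAAP arrays of days 4, 7 and 14, 4 on the C-IAAP array and 2 on each AT2 array. Between C-IAAPs and C-AT2s, 3 of the 8 passed, F13a1, Cx3cr1 and Vcan, all higher, though Cx3cr1 and Vcan were below background on both arrays. Between E-IAAPs and C-IAAPs 2 passed, F13a1 and Vcan, both lower, though Vcan was below background on all 8 arrays. Of the 17 neutrophil markers 1 passed between C-IAAPs and C-AT2s, Mcemp1, higher by 3.88 log2, and it also passed between E-IAAPs and E-AT2s at 4.12. Mcemp1 stepped between IAAPs and AT2s as Chil3 did, at 12.68, 12.49 and 12.69 in E-IAAPs and 12.01 in C-IAAPs, against 8.30 to 8.71 in E-AT2s and 8.13 in C-AT2s. The markers Trem1 and Csf3r read above 15 on all 8 arrays, and so did not separate any group. The log2 of the summed signal of the list, which these 2 genes fill, was 16.60, 16.50 and 16.64 in E-IAAPs, 16.53 in C-IAAPs, 16.56, 16.09 and 16.40 in E-AT2s and 16.48 in C-AT2s. For the monocyte list it was 13.83, 13.66 and 13.58 in E-IAAPs, 14.25 in C-IAAPs, 13.91, 13.59 and 13.72 in E-AT2s and 13.54 in C-AT2s. The part of neutrophil or monocyte RNA in the calprotectin signal was not tested.

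Among 14 other S100 genes, 0 passed between E-IAAPs and E-AT2s by limma. At an unadjusted p under 0.05 there were 4, 3 of them higher, beside 1598 of all 24306 genes higher and 1241 lower. Between C-IAAPs and C-AT2s, S100a4, a calcium-binding protein of motile cells, was higher by 4.05 log2 (adjusted p = 0.0194), and S100a1, S100a13 and S100a14 were lower. S100a1 differed by -1.88 log2 there and by 1.68 between E-IAAPs and C-IAAPs. S100a13 and S100a14 were below background on the C-IAAP array, so that C-AT2s exceeded it by at least 2.33-fold and 1.24-fold. S100a4 read 12.36, 12.25 and 12.51 in E-IAAPs, 12.65 in C-IAAPs, 9.66, 9.37 and 8.06 in E-AT2s and 8.60 in C-AT2s, but passed only between the control arrays. Of the receptors of calprotectin, neither Tlr4 nor Ager, which is best known as a marker of type I cells, was called in any comparison. Ager read 14.35, 14.31 and 14.17 in E-IAAPs, 14.15 in C-IAAPs, 14.52, 14.77 and 14.77 in E-AT2s and 14.46 in C-AT2s.

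Slpi read 10.28, 10.74 and 11.16 in E-IAAPs, 10.06 in C-IAAPs, 9.45, 10.85 and 10.55 in E-AT2s and 9.47 in C-AT2s. The day 4 arrays were the lowest of their population among E cells, the C-AT2 array lay beside E-AT2 day 4, and the populations overlapped. E-IAAPs against E-AT2s gave 0.45 log2 (95% interval -0.36 to 1.25) and E-AT2s against C-AT2s 0.81 (95% interval -0.65 to 2.28). Neither difference passed. The 2 dimmer Slpi spots were below background on all arrays and are not read here. The genes closest to Slpi over the arrays were Tubb5, Cdca8 and Incenp, with r of 0.98, 0.97 and 0.96, a tubulin and a pair of mitotic proteins. Cdca8 read 7.98, 9.27 and 9.70 in E-IAAPs, 6.65 in C-IAAPs, 3.85, 10.32 and 8.94 in E-AT2s and 4.67 in C-AT2s. It was below background on the C-IAAP, E-AT2 day 4 and C-AT2 arrays.

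Of 12 other WAP proteins, the family of Slpi, 3 passed between E-IAAPs and E-AT2s, all higher: Wfdc21, Wfdc17 and Wfdc10. The median difference of the 12 was 0.32 log2, though most of them were below background on every array. Wfdc21 read 10.37, 10.22 and 11.11 in E-IAAPs, 8.59 in C-IAAPs, 7.14, 7.42 and 8.13 in E-AT2s and 8.14 in C-AT2s, an 8.03-fold difference of E-IAAPs over E-AT2s (adjusted p = 0.0207). Wfdc17, known from activated macrophages, read 6.34, 7.48 and 7.57 in E-IAAPs, 7.85 in C-IAAPs and 2.67 to 4.21 in AT2s, and was below background on 6 of the 8 arrays. Wfdc2, an epithelial WAP protein, read between 10.50 and 11.29 on all arrays.

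**Figure D4:**
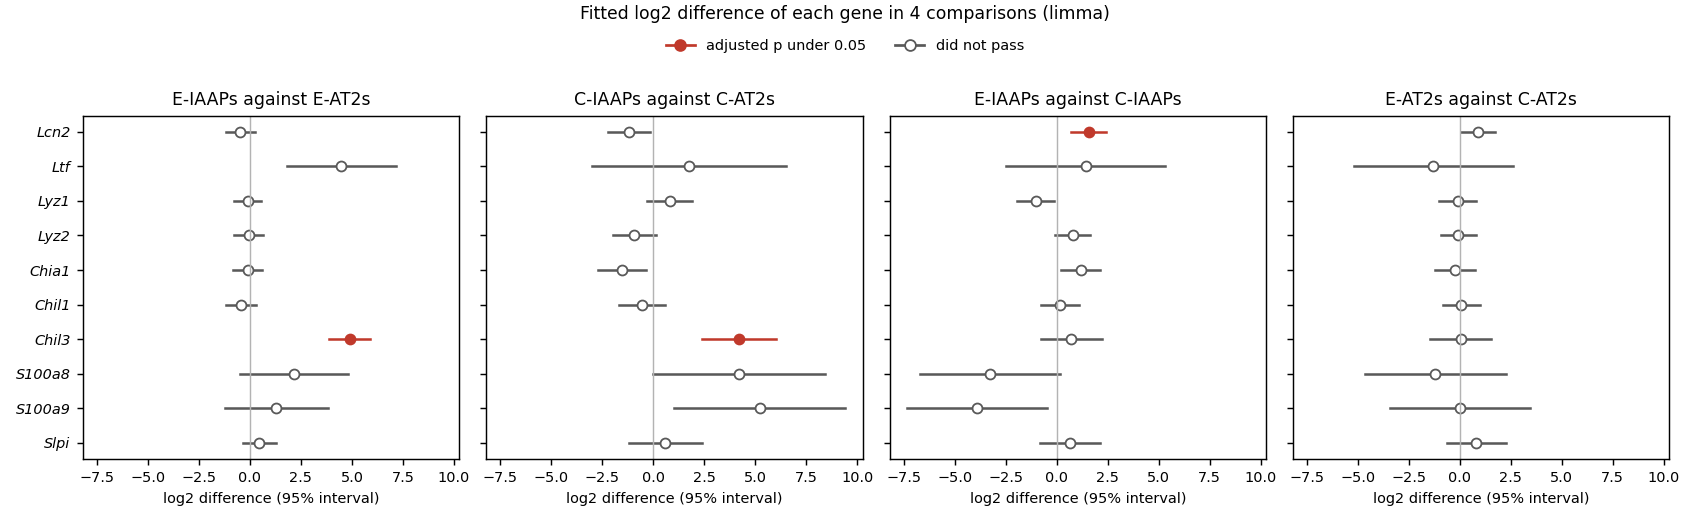
Fitted log2 difference (x axis) of each of the 10 genes (rows) in 4 comparisons of limma, with 95% intervals as lines. Filled red points have an adjusted p under 0.05: Chil3 in both comparisons of IAAPs with AT2s (4.89 and 4.20) and Lcn2 between E-IAAPs and C-IAAPs (1.58).

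Across the remaining tests the 10 genes stayed below the threshold. Between E-AT2s and C-AT2s 0% of all genes passed by limma, while at an unadjusted p under 0.05 there were 712 with a positive and 897 with a negative difference, and 1 of the 10, Lcn2, was among these. For the change from day 4 to day 14 shared by E-AT2s and E-IAAPs, 0% of genes passed, with 647 upward and 486 downward at an unadjusted p under 0.05, none of them among the 10. For the difference of that change between E-IAAPs and E-AT2s, 0% of genes passed, with 1003 and 379 at an unadjusted p under 0.05. Of the 10, Ltf and S100a8 were among those 1003, but both genes were below background on E-IAAP day 4 and on all 3 E-AT2 arrays, so these changes have no measured size. The median difference of the 10 genes between E-IAAPs and E-AT2s was 0.19 log2, against -0.05 over all genes. Between E-IAAPs and C-IAAPs it was 0.70 against -0.10, and between C-IAAPs and C-AT2s 0.70 against 0.09.

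Among 28 other secreted antimicrobial genes, 0 passed between E-IAAPs and E-AT2s by limma. At an unadjusted p under 0.05 there were 9, all higher, beside 1598 of all 24306 genes higher and 1241 lower. Scgb1a1, Scgb3a1, Scgb3a2, Bpifa1 and Bpifb1 of this list are also among the airway secretory markers above. The brightest genes of the list included Scgb1a1 and the collectins Sftpd and Sftpa1. Sftpd, which opsonises microbes, read 14.95, 15.02 and 14.76 in E-IAAPs, 14.31 in C-IAAPs, 15.18, 14.80 and 15.24 in E-AT2s and 15.06 in C-AT2s. Pglyrp1, a peptidoglycan recognition protein, passed as higher between E-IAAPs and C-IAAPs (adjusted p = 0.0239) and between C-IAAPs and C-AT2s (adjusted p = 0.0395), but both control arrays were below background and no fold is given. Defb1, a defensin, passed as lower between E-IAAPs and C-IAAPs with every array below background. Among 16 other lipocalins and transferrins, Rbp4, the retinol carrier, passed as higher between E-IAAPs and C-IAAPs (adjusted p = 0.00196) and as lower between C-IAAPs and C-AT2s (adjusted p = 0.00530). Rbp4 read 2.76 on the C-IAAP array, below background, against 7.43 to 8.72 on the others, values that lie near or under the C-IAAP background level of 8.67, so no fold is given. Lrp1, an uptake receptor for lactoferrin, exceeded its E-AT2 level by 3.25 log2 in E-IAAPs (adjusted p = 0.0199). Slc22a17, the lipocalin 2 receptor, lay between 8.54 and 9.45 on all arrays and passed nowhere.

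Of 15 genes known to regulate the 10, Spi1 was the 1 that passed between E-IAAPs and E-AT2s, at least 7.83-fold higher (adjusted p = 0.0175). Cebpb, a C/EBP factor induced in inflammation, read 12.72, 13.02 and 13.04 in E-IAAPs, 12.44 in C-IAAPs, 10.26, 11.11 and 11.26 in E-AT2s and 10.93 in C-AT2s, with all IAAP arrays above all AT2 arrays, but did not pass. Cebpa, a C/EBP factor that type 2 cells share with myeloid cells, lay between 14.28 and 15.49 on all arrays. Il17ra, a receptor chain through which Lcn2 is known to be induced, was higher in E-IAAPs than in C-IAAPs by 2.22 log2 (adjusted p = 0.00651), at 12.15, 12.17 and 12.13 against 9.93. Il17ra read 10.90, 10.79 and 10.86 in E-AT2s and 10.69 in C-AT2s, all below E-IAAPs. Lcn2 was highest in E-AT2s, and the part of Il17ra in the Lcn2 signal was not tested. Cebpe, needed for neutrophil secondary granules, was below background on all arrays.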

How the data were processed

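Log2 spot signals of 8 one-colour (Cy5) Agilent mouse arrays were used, of sorted E-IAAPs, C-IAAPs, E-AT2s and C-AT2s, with 1 array per population, genotype and day. Per the methods, the authors amplified the RNA, read spots with Mapix 6.5.0, corrected background with NormExp, fitted to negative control spots, and then applied quantile normalization in limma (version not given in the sources used here); the deposited log2 values are single spots, before averaging.

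Of 62976 spots, 43941 carry 1 gene symbol; they were named by accession (33708), current symbol (9763) or synonym (463), and 7 kept the platform's symbol. The brightest spot by mean represented each of 24306 genes, 11040 of which had several. Probe positions within transcripts were not used here.

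The 6 E arrays were fitted in limma 3.58.1 (R 4.3.3) by population, with day as a block. All comparisons with control arrays, and the interaction of population and genotype, came from 1 fit of the 8 arrays in 4 groups, where the spread over days of the E groups stands in for that of each single control array. These comparisons share arrays. Slopes over days used the 6 E arrays. P-values were adjusted by Benjamini-Hochberg over all genes, with 0.05 as the threshold. The fits were also run on simulated data of independent noise, without day effects or an array that stood apart as that of C-IAAPs did. That run does not bear on the calls given here. Genes below background on every array of a group give only a lower bound of a fold, from that group's background level. Where C-IAAPs are the brighter side, these bounds do not allow for the higher background of that array. Other steps used Python 3.11.15 and pandas 2.3.3.

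The 10 genes, the 16 other lists (4 of whose genes were not measured) and the rule for named genes (up to 4 of the brightest per list, all that passed where 5 or fewer did, and the 3 most alike in pattern) were chosen with earlier results of these data known. The number of arrays limits the precision. Alternatives were other scalings, means of all spots, other spots, the brighter genes alone, other priors, day terms and leaving out arrays.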

Additional observations from a re-analysis of the deposited data

How the results depend on the processing

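The 3 called differences of the 10 genes kept their direction under every alternative run. In the main fits 17.1% of all genes passed between E-IAAPs and C-IAAPs and 13.9% between C-IAAPs and C-AT2s. Where a count of the 10 is given below without a count of all genes, it is not read as a result about the 10. With trend and robust priors 588 genes and 2 of the 10 (Chil3, and Ltf at an adjusted p of 0.0496) passed between E-IAAPs and E-AT2s, and without the day block 483 genes; with any 1 day left out 0 genes and 0 of the 10 passed in fits (limma) with 1 residual degree of freedom. Between E-IAAPs and C-IAAPs, 4 of the 10 passed with trend and robust priors, 3 among the brighter genes and 0 with day as a term (1407 genes), and without 1 array 0 to 2 of the 10 and 2529 to 3817 genes. Between C-IAAPs and C-AT2s, 4 of the 10 passed with trend and robust priors, 3 among the brighter genes and 1 to 2 without 1 array (2372 to 3099 genes), and 1640 genes passed with day as a term. For the interaction of population and genotype 547 genes passed with the mean of all spots, 1648 among the brighter genes, 1885 with trend and robust priors, 0 with day as a term and 131 to 575 without 1 array. Between E-AT2s and C-AT2s 1 gene passed with the mean of all spots, and 9 passed the shared slope with trend and robust priors. Centring on genes used by every cell moved the median of all genes to -0.39 from -0.10 between E-IAAPs and C-IAAPs and to 0.36 from 0.09 between C-IAAPs and C-AT2s, and for the interaction to -0.49 from -0.10.

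Reversed signs concerned differences that did not pass. Slpi gave -0.33 with the mean of all spots, -0.77 on spot 2 and -0.67 on spot 3 between E-IAAPs and E-AT2s, and -0.021 with the mean and -1.0 on spot 3 between E-IAAPs and C-IAAPs, but spots 2 and 3, which the mean contains, were below background on all 8 arrays, so these signs are not measured reversals. Lyz2 gave -0.55 on spot 2 between E-IAAPs and C-IAAPs, 0.0030 with the mean and 0.95 on spot 2 between C-IAAPs and C-AT2s, and 0.023 centred on genes used by every cell, 0.21 with the mean, 0.0069 with day as a term and 0.50 on spot 2 between E-AT2s and C-AT2s. Chil1 gave -0.12 between E-IAAPs and C-IAAPs centred on genes used by every cell. Between E-AT2s and C-AT2s, S100a9 gave -5.8e-04 centred on the array median and Chil3 -0.26 with day as a term. With 1 day or array left out, Lyz2 ranged from -0.14 to 0.080 and Chia1 from -0.28 to 0.027 between E-IAAPs and E-AT2s. Between E-AT2s and C-AT2s the ranges were -0.24 to 0.035 for Lyz1, -0.21 to 0.063 for Lyz2, -0.12 to 0.22 for S100a9, -0.084 to 0.26 for Chil1 and -0.46 to 0.34 for Chil3. Other spots were chosen after seeing the data. Causes were not tested. Of the differences of the 10 genes under alternatives, 497 kept direction and side of the threshold, 15 gained the threshold, 7 lost it and 23 changed sign. The difference of slopes could not be fitted with a day left out. E-IAAPs and E-AT2s were paired by day in the block; comparisons with control arrays had no such pairs beyond day 7. With 1 array per group and day, a lone array's faults cannot be told apart from its group.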

Other observations

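Genes closest in pattern to the epithelial products were found over the 8 arrays among 10550 genes above background on at least 4 of them, as a description of arrays that share groups. H2-T22, an MHC class I gene, was closest to Lcn2 (Pearson r of 0.99), at 9.69, 9.87 and 9.58 in E-IAAPs, 8.99 in C-IAAPs, 9.81, 9.98 and 9.95 in E-AT2s and 9.59 in C-AT2s. S1pr2 and Nxt1 followed. Gprc5b, Slc19a2 and Tmem68 were closest to Chia1, and Golt1b, Chmp5 and Snu13 to Chil1. Rab6a, Dcun1d4 and Nfyc were closest to Lyz1, and Mta2, Tnfsf12 and Emc4 to the brighter Lyz2 spot.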
